A study of Mus musculus with 47 samples.

Results

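The diet effect in brown adipose tissue (BAT) was compared with the diet effect in liver, gene by gene, for methionine restriction in mice. The members were the 24 BAT and liver libraries of a series of 47 libraries, and 26608 gene symbols that the count tables of both tissues hold. The 12 mice were males of the inbred strain C57BL/6J, with no genetic change named in the labels. From 5 weeks of age, 6 mice ate a control diet (CON) and 6 ate a diet restricted in methionine (MR), freely, for 11 weeks. Housing was at 23 C, and a fast of 5 h preceded tissue collection. Each mouse gave 1 BAT and 1 liver library under the same animal number, so the groups were BAT CON, BAT MR, liver CON and liver MR with 6 libraries each. The contrast is of the diets as labelled, without their methionine content. Libraries are named below by tissue, diet and animal number. The question was which transcripts responded to restriction differently in the 2 tissues, and which responded in the same direction in both.

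Methionine is an essential amino acid and the source of S-adenosylmethionine, cysteine, glutathione and taurine. When amino acids are short, the kinase GCN2 phosphorylates the initiation factor eIF2 alpha, and the transcription factor ATF4 then activates genes for amino acid synthesis and transport together with C/EBP proteins. Liver makes plasma proteins, fatty acids and bile acids and secretes the hormone FGF21 in states of nutrient stress. BAT burns fatty acids for heat through the uncoupling protein UCP1, and noradrenaline raises the transcripts of its thermogenic program.

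The libraries held 3' tags, and a value counts the tags of a gene. Totals ran from 5252688 to 13117537 counts in BAT and from 7710740 to 12130444 in liver. Levels of genes are given as CPM, counts scaled to a library of 1000000 with TMM factors, as the lowest, median and highest of the 6 libraries of a group. A count of 0 allows up to 3 counts, a limit that covers counting error only. As CPM of the library total, without TMM factors, this is 0.229 to 0.571 in BAT and 0.247 to 0.389 in liver. Levels of genes are also divided by TMM factors (0.997 to 1.32 in BAT and 0.759 to 1.002 in liver), so the limit compares with them only roughly. A diet effect is the log2 fold change of restricted over control libraries, with its standard error (SE). The difference of the diet effects is the log2 fold change in BAT minus that in liver, so a positive value means a higher response in BAT. All 3 came from 1 edgeR quasi-likelihood fit of the 24 libraries over 12321 genes with enough counts. Calls had a Benjamini-Hochberg adjusted p under 0.05 over all of these genes. Every adjusted p below is from this edgeR fit unless another is named.

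The tissues carried the markers of their labels, and 1 BAT library stood apart. Summed over 13 brown adipocyte markers, the level was 23732 to 43422 CPM (for marker sums, of the library total without TMM factors) in BAT and 443 to 839 in liver. Over 20 hepatocyte markers it was 118220 to 242830 CPM in liver. In BAT it was 4261 CPM in BAT CON3106 and 46.1 to 129.6 in the other 11 libraries. BAT CON3106 also held 764 CPM of lymphocyte markers and 544 of macrophage markers, against at most 22.2 and 164 in any other BAT library. Its median Spearman correlation to the other BAT libraries was 0.910, against 0.925 to 0.964 for the rest. Without BAT CON3106 the count of genes called lower in BAT went from 333 to 109, so results that rest on this library are given with and without it. That count also moved with other BAT libraries. It was 157 to 195 without BAT MR3101, MR3102, MR3104, MR3109 or MR3116, and 288 without BAT MR3113. Without any one of the other BAT controls it was 368 to 453. Skeletal muscle markers ran from 397 to 31732 CPM in BAT, highest in BAT CON3112. They reached 2081 in liver MR3104 and 1220 in liver CON3114, against at most 251 in the other liver libraries. In these bulk samples, fewer cells of a type and less RNA per cell cannot be told apart.

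**Figure D1:**
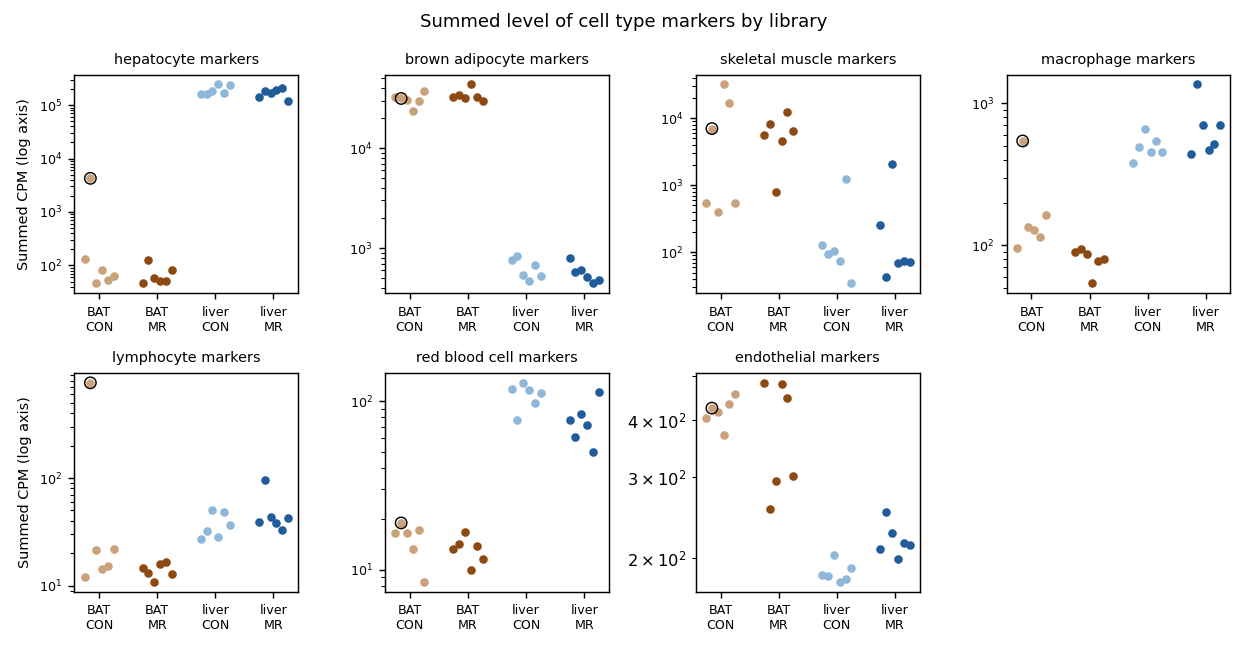
Summed level of 7 sets of cell type markers, CPM of library totals on log axes, in each BAT and liver library (1 point per library, by tissue and diet); the circled point is BAT CON3106. BAT CON3106 lies at 4261 for hepatocyte markers, above the other 11 BAT libraries, and the muscle markers spread from 397 to 31732 within BAT.

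In both tissues 10 genes were called, and 128 genes had diet effects that differed between the tissues. Of 12321 genes tested, 561 were called in BAT, 104 in liver and 10 in both. The overlap that chance would give was not computed. A gene that misses the threshold in 1 tissue may still respond there, so these counts do not measure how far the responses were shared. The diet effects differed between BAT and liver for 128 genes, of which 70 had the higher effect in BAT (0.568% of genes tested) and 58 had the lower effect in BAT (0.471%). Without BAT CON3106 the counts were 68 (0.549% of 12395 genes) and 56 (0.452%), and 59 and 49 of the 70 and 58 genes were still called. At an unadjusted p under 0.05 there were 2018 genes with all 24 libraries, and 5% of the 12321 genes tested is 616. Without the BAT library that stood apart there were 1633 such genes, so part of the excess over 616 went with that library. In BAT alone, restriction raised 228 genes (1.85%) and lowered 333 (2.7%), and in liver alone it raised 44 (0.357%) and lowered 60 (0.487%). Of the 128 genes, 113 were measured in both tissues, with a mean of at least 10 counts in a diet group of each (66 of the 70 and 47 of the 58). Such a mean can come from 1 library. The hepatocyte marker Ahsg counts as measured in both, with a BAT CON median of 0 and a highest value of 18.4 CPM. The diet effects had opposite signs in 103 of the 128 genes, a share that the choice of genes raises, and in 51.9% of all genes tested. Across the 10264 genes measured in both tissues, the effects had a Pearson r of -0.013 and a Spearman rho of -0.043. Genes are not independent replicates, and without BAT CON3106 the r was -0.094. The class of genes measured in both was set with all 24 libraries, also for that r.

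The counts differed between models. A block for the animal, since both tissues came from the same mice, left 21 and 15 of the 70 and 58 genes and called no others. With this block 1359 differences had an unadjusted p under 0.05. With all 47 libraries of the series in 1 fit, which also changes the genes tested (13541), 3 and 11 genes were called. Of the 35 called differences described below, 9 kept their call in that fit (Asns, Cyp39a1, Dnaic1, Epb4.1l1, Lbp, Mfsd2a, Orm3, Psat1 and Scara5). The other 26 had adjusted p-values of 0.0711 to 0.964 there. The biological coefficient of variation was 36.3% in BAT and 22.8% in liver, and the main fit shares 1 estimate of the spread. Fitted apart, with 12116 genes tested in either, BAT had 62 genes higher and 58 lower, and liver 115 and 133. Of the single-tissue calls described below, the separate fits ended 12 of 32 with a value in BAT (adjusted p of 0.0504 to 0.181), for Ccl6, Col27a1, Gadd45b, Hadh, Mtss1, Net1, Pck2, Ppara, Ppargc1a, Sc4mol, Slc3a2 and Smo. In liver they ended 1 of 30, for Insig2 (adjusted p = 0.0547). The 47-library fit ended 30 of 38 in BAT (adjusted p of 0.0541 to 0.926) and 18 of 30 in liver (0.0598 to 1).

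**Figure D2:**
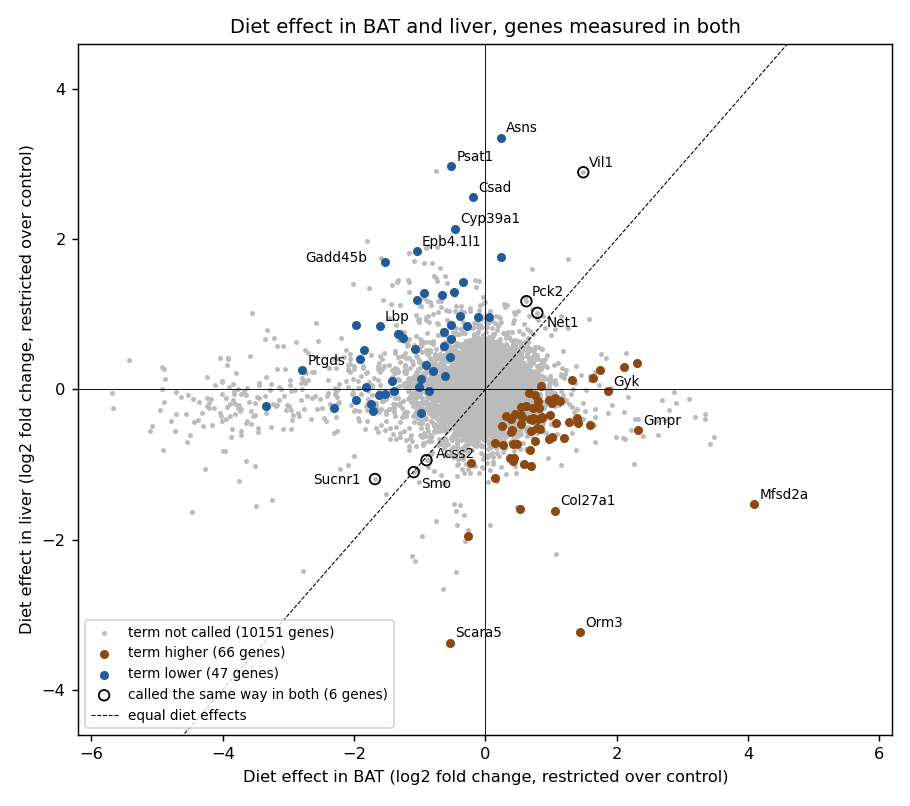
Diet effect in BAT (x axis) against the diet effect in liver (y axis), both as log2 fold change of restricted over control libraries, for 10264 genes measured in both tissues, 3 of which lie outside the axes. Brown and blue points are the 66 and 47 genes with a higher or lower effect in BAT, circles are the 6 genes called in the same direction in both, and the dashed line marks equal effects; Asns, Psat1 and Csad lie near 0 in BAT and above 2 in liver, while Gyk and Gmpr lie at 1.87 and 2.32 in BAT and at or below 0 in liver.

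Asns, Psat1 and Csad, which act in the synthesis of asparagine, serine and taurine, rose in liver and were not called in BAT. ATF4 acts through short sites near the start of its target genes. Shown here are 4 genes that rose in liver under restriction and had a window with a match to such a site. Windows without a match are not shown, so the display does not tell how common a match was among genes that rose. Pck2 was also called higher in BAT, and the difference of Fgf21 between tissues was not called. Each window is the 250 bases before a transcript start that RefSeq gives for the gene (GRCm38.p6), written 5′ to 3′ on the strand of the gene. The window of Vldlr lies inside the span of the gene, before a start further downstream. Capitals mark a match to TGATGNAAN, a core of the site bound by ATF4 with C/EBP, or to its reverse complement.
Asns (chr6:7693210-7693459, minus strand): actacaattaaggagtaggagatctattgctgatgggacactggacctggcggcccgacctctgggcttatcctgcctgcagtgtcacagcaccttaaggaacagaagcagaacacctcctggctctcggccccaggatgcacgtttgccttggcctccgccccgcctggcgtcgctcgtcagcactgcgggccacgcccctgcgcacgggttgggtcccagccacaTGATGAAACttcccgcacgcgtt
Fgf21 (chr7:45615491-45615740, minus strand): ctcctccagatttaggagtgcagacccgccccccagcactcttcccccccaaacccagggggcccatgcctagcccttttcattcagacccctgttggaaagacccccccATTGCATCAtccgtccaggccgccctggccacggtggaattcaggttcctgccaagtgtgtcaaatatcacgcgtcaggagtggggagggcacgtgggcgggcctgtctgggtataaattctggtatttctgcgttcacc
Vldlr (chr19:27216770-27217019, plus strand): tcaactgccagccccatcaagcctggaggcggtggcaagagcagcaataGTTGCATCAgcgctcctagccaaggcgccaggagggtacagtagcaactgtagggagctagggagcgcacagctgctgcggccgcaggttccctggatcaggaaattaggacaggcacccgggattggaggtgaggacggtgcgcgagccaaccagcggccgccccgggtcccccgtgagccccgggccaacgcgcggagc
Pck2 (chr14:55540016-55540265, plus strand): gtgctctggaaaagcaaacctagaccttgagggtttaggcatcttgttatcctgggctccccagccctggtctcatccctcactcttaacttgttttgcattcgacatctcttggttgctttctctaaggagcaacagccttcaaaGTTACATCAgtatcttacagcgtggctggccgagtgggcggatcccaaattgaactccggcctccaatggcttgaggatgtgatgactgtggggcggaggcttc
The match lay in the orientation of the gene in Asns, with its first base at position -23 from that transcript start, and on the other strand in Fgf21 (-140), Vldlr (-201) and Pck2 (-104). Of the 30 genes in a list of the amino acid stress response and ATF4 targets, 25 had a window and 7 of these held a match, against 3.89% of all 27025 genes with a window and 3.44% of all 32851 windows. The list was drawn from known ATF4 targets, so that share was not independent of the motif. Vldlr had a match in 1 of its 2 windows, and neither of 2 windows of Psat1 nor of Csad held one. Of the 27 genes with the largest called differences or called in both tissues, 21 had a window. A match to TGATGNAAN was in 2 of them (Asns and Pck2), and a match to TGACNNNGC, a core of the site of the antioxidant factor NRF2, in 4 (Acss2, Asns, Epb41l1 and Gk), against 11.5% of all genes. None of the 21 held AGGTCANAGGTCA, the core of a PPAR site, which was in 0.0407% of all genes. Both strands were searched and the motifs were scored separately. A match describes letters and does not show binding.

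Asns, which makes asparagine (chromosome 6, 7675165 to 7693209, GRCm38.p6), had 5.61, 18.9 and 46.4 CPM in liver CON and 194, 255 and 297 CPM in liver MR. The liver groups did not overlap. BAT had 103, 125 and 181 CPM on the control diet and 120, 141 and 263 CPM under restriction, and these groups overlapped. The diet effect was 3.35 ± 0.37 (SE, n = 6 and 6) in liver (adjusted p = 4.94e-06) and 0.23 ± 0.33 in BAT (adjusted p = 0.76), and the difference was -3.12 ± 0.49 (adjusted p = 0.00124). The lowest restricted liver lay above the highest control BAT library.

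Psat1, which acts in serine synthesis from glycolysis (chromosome 19, 15905123 to 15925059), had 1.29, 2.45 and 6.97 CPM in liver CON and 14.5, 22.1 and 41.3 CPM in liver MR, with no overlap. Its BAT levels were 1.56, 3.98 and 21 CPM in control and 1.82, 4.43 and 7.92 CPM in restricted libraries, the highest in BAT CON3106. The diet effect was 2.97 ± 0.54 in liver (adjusted p = 0.00411) and -0.52 ± 0.52 in BAT, and the difference was -3.49 ± 0.74 (adjusted p = 0.0165). Without BAT CON3106 the BAT value was 0.39 and the difference was -2.58 (adjusted p = 0.0304). Phgdh, the enzyme before Psat1 in the same pathway, had too few counts to be tested.

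Aldh1l2, a mitochondrial enzyme of folate metabolism (chromosome 10, 83487447 to 83534146), had 0.117, 0.397 and 0.562 CPM in liver CON and 2.03, 3.18 and 4.64 CPM in liver MR. The liver effect was 3.14 ± 0.35 (adjusted p = 7.48e-06) and the liver groups did not overlap. In BAT it had at most 0.486 CPM in control and 0.407 CPM in restricted libraries, at or near the limit of a count of 0, so no BAT fold is given. The called difference (-3.71 ± 0.59, adjusted p = 0.00163) rests on that BAT floor.

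Vldlr, a lipoprotein receptor that ATF4 can induce in liver (chromosome 19, 27216480 to 27254231), had 0.863, 2.06 and 4.33 CPM in liver CON and 5.3, 7.23 and 11.2 CPM in liver MR. In BAT, where it was higher throughout, it had 80.1, 119 and 144 CPM in control and 129, 137 and 152 CPM in restricted libraries. The effects were 1.76 ± 0.28 in liver (adjusted p = 0.00113) and 0.24 ± 0.24 in BAT (adjusted p = 0.648), and the difference was -1.52 ± 0.37 (adjusted p = 0.043). The call was lost with the animal as a block (adjusted p = 0.143) and without filter (0.0514). It was also lost without any single library other than BAT CON3106, BAT MR3113, BAT MR3116, liver CON3103, liver CON3106, liver CON3114, liver MR3109 and liver MR3116 (adjusted p of 0.0508 to 0.0801).

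Over the whole list of the amino acid stress response, 23 of 30 genes were tested. The difference was called lower in BAT for 4 of them (Aldh1l2, Asns, Psat1 and Vldlr) and higher for 0, with a median difference of -0.80 against -0.04 over all genes tested. Over its 20 members measured in both tissues the median difference was -0.53. In liver 5 rose, these 4 and Fgf21, and 0 fell, with 22 of 23 above 0. Of all 12321 genes tested, 6040 liver effects lay above 0, and 0.357% were called higher and 0.487% lower. In BAT 1 rose and 0 fell. That gene was Slc3a2, a subunit of amino acid transporters, with 16.1, 20.5 and 24.4 CPM in BAT CON, 22.5, 33 and 60.2 CPM in BAT MR and an effect of 0.79 ± 0.20 (adjusted p = 0.0262). Its call was lost without BAT MR3116 (adjusted p = 0.0862), and its difference between tissues was not called (0.48 ± 0.28, adjusted p = 0.419). The list does not hold Pck2, a known ATF4 target described below. Pck2 was called higher in BAT (0.62, adjusted p = 0.0461) and in liver (1.17, adjusted p = 0.000791). Without BAT CON3106 the same 4 differences were called, and the median difference was -0.60 over the 23 tested members and -0.20 over the 20 measured in both tissues. Of 20 aminoacyl-tRNA synthetase genes, which charge tRNAs and include ATF4 targets, edgeR called 0 in either tissue or for the difference. At an unadjusted p under 0.05 there were 5 for the difference, 2 in BAT and 3 in liver, and DESeq2 called 1 in BAT. Over all genes tested, 2018 of 12321 differences had an unadjusted p under 0.05.

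Fgf21, the gene of a hormone of nutrient stress (chromosome 7, 45613890 to 45615490), had 3.04, 4.19 and 14.7 CPM in liver CON and 11.7, 22.5 and 26.5 CPM in liver MR. The ranges overlapped, although all 6 restricted livers lay above the control median. The liver effect was 1.74 ± 0.34 (adjusted p = 0.00784). BAT had at most 0.945 CPM in control and 1.13 CPM in restricted libraries, with an effect of 0.17 ± 0.54. The difference of -1.57 ± 0.65 was not called (adjusted p = 0.224), so a larger response in liver was not shown at these BAT counts.

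Csad, which forms hypotaurine on the way from cysteine to taurine (chromosome 15, 102176997 to 102205052), had 20.8, 28 and 39 CPM in liver CON and 133, 162 and 231 CPM in liver MR. Its BAT levels were 7.7, 19 and 33.3 CPM in control and 9.78, 17.7 and 23.7 CPM in restricted libraries. All 6 restricted livers lay above all control livers, while the BAT groups overlapped. The effect was 2.56 ± 0.26 in liver (adjusted p = 1.85e-06) and -0.19 ± 0.25 in BAT (adjusted p = 0.743), with a difference of -2.75 ± 0.36 (adjusted p = 0.000303). It was the only one of 27 tested genes of the methionine cycle and transsulfuration whose difference edgeR called in the 24 libraries. Without BAT CON3106 the difference of Tst, a sulfurtransferase, was also called (0.72, adjusted p = 0.0461; 0.67 and adjusted p = 0.064 with all libraries). DESeq2 called 1 of the 27 differences higher and 2 lower. In liver 1 of the 27 rose, Csad, and 0 fell. In BAT 2 fell and 0 rose, and without BAT CON3106 only Gamt, which makes creatine, still fell. Gamt had 3.31, 5.1 and 6.13 CPM in BAT CON and 0.743, 1.73 and 2.49 CPM in BAT MR, an effect of -1.51 ± 0.23 (adjusted p = 0.000444), against -0.42 ± 0.19 in liver (adjusted p = 0.527). Its difference of -1.09 ± 0.30 was not called (adjusted p = 0.0798).

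**Figure D3:**
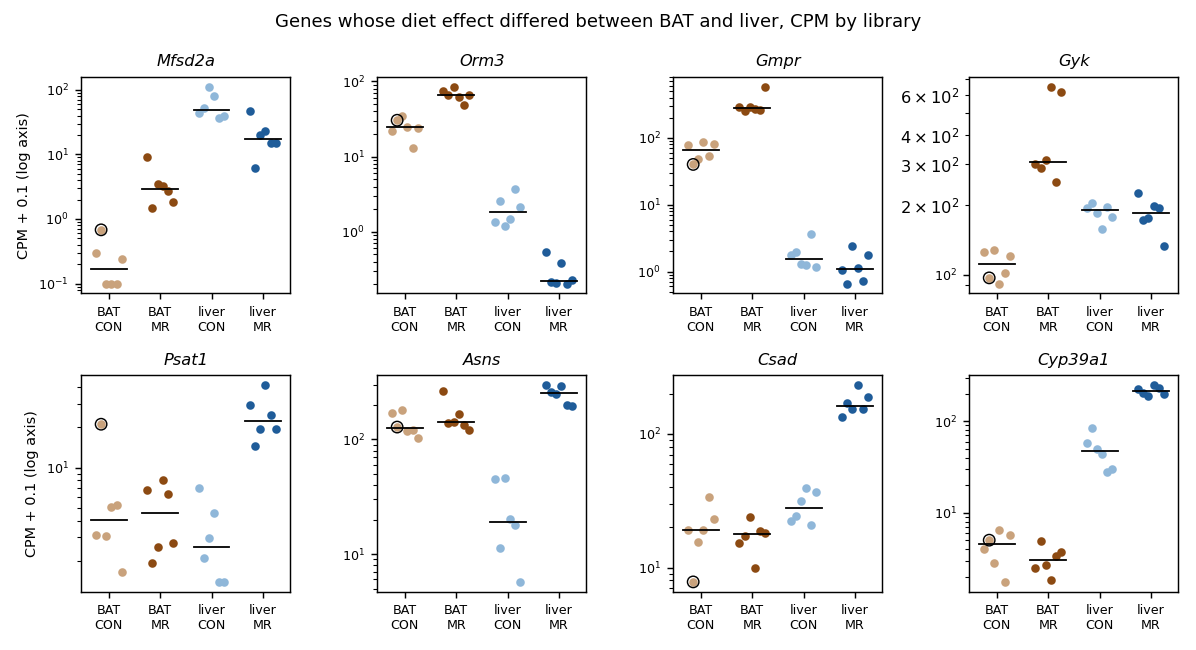
Level of 8 genes whose diet effect differed between tissues, as CPM plus 0.1 on log axes, in each library of BAT and liver on the control (CON) and restricted (MR) diet; bars are medians of 6 libraries and the circled point is BAT CON3106. The liver groups of Psat1, Asns, Csad and Cyp39a1 do not overlap while their BAT groups do, and the BAT groups of Mfsd2a, Orm3, Gmpr and Gyk do not overlap.

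Other genes with a lower effect in BAT acted in sterol and detoxifying metabolism of the liver. Cyp39a1, an oxysterol hydroxylase of bile acid synthesis (chromosome 17, 43667372 to 43751431), had 28.1, 46.8 and 84.4 CPM in liver CON and 187, 216 and 247 CPM in liver MR, with no overlap. In BAT it stayed between 1.66 and 6.36 CPM in both groups. The effect was 2.14 ± 0.27 in liver (adjusted p = 4.47e-05) and -0.47 ± 0.30 in BAT, and the difference was -2.60 ± 0.40 (adjusted p = 0.00113). It was not matched by its list, since edgeR called 0 of 20 tested genes of bile acid synthesis and transport for the difference or in liver. At an unadjusted p under 0.05, 14 of them differed between tissues and 0 changed in liver, and DESeq2 called 2 differences. Over all genes tested, 2018 of 12321 differences had an unadjusted p under 0.05. The median difference of this list was -2.67, and -0.64 without BAT CON3106. In BAT 4 of these 20 fell and 1 rose, and without BAT CON3106 0 fell and 1 rose.

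Glutathione transferases and other NRF2 targets, which conjugate and detoxify electrophiles, rose in liver in 3 of 27 tested genes and fell in 0. Over all genes tested, 0.357% rose in liver and 0.487% fell. Gsta4 had 38, 54.1 and 64.7 CPM in liver CON and 69.3, 106 and 142 CPM in liver MR, and 81.3, 119 and 128 CPM in BAT CON against 68.7, 89.4 and 99.4 CPM in BAT MR. Its effects were 0.97 ± 0.17 in liver and -0.39 ± 0.17 in BAT, and the difference of -1.36 ± 0.24 was called (adjusted p = 0.00454; 0.0623 with the animal as a block). Gstm1 had 740, 849 and 928 CPM in liver CON and 1188, 1555 and 1746 CPM in liver MR, with a liver effect of 0.85 ± 0.18. Its difference was -1.13 ± 0.26 (adjusted p = 0.0287). That call was lost with the block (adjusted p = 0.132), without filter (0.0533) and without BAT CON3114, BAT MR3101, liver CON3107 or liver MR3109 (0.0506 to 0.0544). Ephx1, an epoxide hydrolase, rose in liver by 1.05 ± 0.18 (adjusted p = 0.00189), and its difference was not called (-0.56 ± 0.25, adjusted p = 0.264). Over the list the median difference was -0.46, with 21 of 27 genes below 0, against 6546 of all 12321 genes tested. The median diet effect of the list was 0.23 in liver and -0.23 in BAT. The NRF2 list fell in 3 genes in BAT, and in 2 without BAT CON3106. Gstm1 belongs to a family of near-identical genes, and tags could be split among its copies.

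Epb4.1l1, also named Epb41l1, a protein of the membrane skeleton (chromosome 2, 156417595 to 156543214), moved in opposite directions. It had 31.9, 37.7 and 44.4 CPM in BAT CON and 14.1, 18.2 and 22.4 CPM in BAT MR, with no overlap. Liver had 0.934, 1.61 and 2.48 CPM in control and 1.68, 6.35 and 9.98 CPM in restricted libraries, which overlapped. The effects were -1.05 ± 0.26 in BAT (adjusted p = 0.0239) and 1.84 ± 0.30 in liver (adjusted p = 0.00126), and the difference was -2.89 ± 0.40 (adjusted p = 0.000371).

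A lower effect in BAT also came from genes that fell in BAT and were not called in liver in the main fit. Ptgds, a prostaglandin D synthase (chromosome 2, 25466709 to 25470110), had 6.5, 9.59 and 27.2 CPM in BAT CON and 1.25, 1.82 and 2.35 CPM in BAT MR. The BAT groups did not overlap, and liver ranged from 0.45 to 5.07 CPM over both diets. The effects were -2.80 ± 0.43 in BAT (adjusted p = 0.000424) and 0.26 ± 0.44 in liver, with a difference of -3.05 ± 0.61 (adjusted p = 0.0103; 0.111 with the block and 0.0707 with limma voom). Lbp, the plasma protein that binds bacterial lipopolysaccharide (chromosome 2, 158306493 to 158332852), had 5.38, 10.4 and 15.3 CPM in BAT CON and 2.35, 3.62 and 4.64 CPM in BAT MR, with no overlap. Its liver levels were 69.8, 90.8 and 156 CPM in control and 116, 186 and 212 CPM in restricted libraries. The effects were -1.61 ± 0.26 in BAT (adjusted p = 0.000651) and 0.84 ± 0.23 in liver (adjusted p = 0.107), and the difference was -2.45 ± 0.35 (adjusted p = 0.00058). The liver rise of Lbp passed when liver was fitted alone (adjusted p = 0.0273) and in DESeq2 (0.0446). It also passed in limma voom (0.036) and in voom with 1 variance weight per tissue (0.0064).

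Abcd2, a peroxisomal transporter of long fatty acids (chromosome 15, 91145871 to 91192007), had 90.1, 110 and 173 CPM in BAT CON and 38.6, 47.7 and 59.3 CPM in BAT MR, with no overlap. In the livers it had 21, 31.9 and 69.2 CPM in control and 46, 57.3 and 92.5 CPM in restricted libraries. The effect in BAT was -1.31 ± 0.24 (adjusted p = 0.00267), that in liver 0.73 ± 0.24 (adjusted p = 0.225), and the difference -2.04 ± 0.34 (adjusted p = 0.00185). The liver value passed in voom with 1 variance weight per tissue (adjusted p = 0.0383). Abcd2 and Vldlr were the 2 called of 13 tested genes in a list of liver genes that are higher in females. These animals were all male, and in liver 3 of the 13 rose and 0 fell, against 0.357% and 0.487% of all genes tested.

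Gadd45b, a stress-induced gene (chromosome 10, 80930091 to 80932204), fell in BAT from 0.826, 2.39 and 4.98 CPM to 0.407, 0.753 and 1.51 CPM, with an effect of -1.53 (SE 0.45, adjusted p = 0.0496). Its liver effect was 1.70 ± 0.46 (adjusted p = 0.0874), and the difference of -3.23 ± 0.64 was called (adjusted p = 0.0101; 0.103 with the block). The liver rise passed in DESeq2 (adjusted p = 0.0284), with liver fitted alone (0.0351) and in voom with 1 variance weight per tissue (0.04). The BAT fall kept its call in 3 of 9 other fits and lost it in limma voom (0.113) and with BAT fitted alone (0.161). In BAT the call was lost without any single library other than BAT CON3103, BAT CON3107, BAT CON3115, BAT MR3113, liver MR3113 and liver MR3116 (adjusted p of 0.0544 to 0.113). Snhg11, a long non-coding RNA that hosts small nucleolar RNAs (chromosome 2, 158375713 to 158386474), had 0.472, 2.08 and 3.54 CPM in BAT CON and at most 0.793 CPM in BAT MR. Its BAT effect was -1.97 ± 0.50 (adjusted p = 0.027; 0.0595 without BAT MR3116). The difference was -2.83 ± 0.64 (adjusted p = 0.0267; 0.155 with the block and 0.0658 with limma voom).

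Pcbd1, a dehydratase of pterin metabolism and cofactor of the hepatocyte factor HNF1 (chromosome 10, 61089331 to 61094329), had 0.897, 1.56 and 8.63 CPM in BAT CON and 0.113, 0.231 and 0.434 CPM in BAT MR, against 191 to 542 CPM in liver. The highest BAT value was that of BAT CON3106, the library with hepatocyte markers, and the part of those markers in this result was not tested. The difference was -3.12 ± 0.68 (adjusted p = 0.0205) and -2.09 without that library (adjusted p = 0.0116). The BAT effect went from -3.34 to -2.31 and stayed called. With the block the difference was -2.57 (adjusted p = 0.152).

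The largest higher effects in BAT were of genes that rose in BAT, fell in liver or did both. Mfsd2a, a transporter of lysophosphatidylcholine (chromosome 4, 122946850 to 122961194), had 0, 0.0707 and 0.579 CPM in BAT CON and 1.39, 2.85 and 9 CPM in BAT MR. In liver it had 36.4, 48.4 and 111 CPM in control and 5.97, 17.4 and 46.8 CPM in restricted libraries. All 6 restricted BAT libraries lay above all controls, and all 6 restricted livers lay below the control median. The effects were 4.09 ± 0.71 in BAT (adjusted p = 0.00149) and -1.53 ± 0.44 in liver (adjusted p = 0.131), and the difference was 5.62 ± 0.84 (adjusted p = 0.00103). The BAT controls averaged 2.17 counts per library, and without BAT CON3106, which held the highest of them, the difference was 7.01, so its size is uncertain. The BAT call was lost with limma voom and 1 variance weight per tissue (adjusted p = 0.0735), and the liver value passed in limma voom (adjusted p = 0.0138).

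Orosomucoids are acute phase plasma proteins, and 2 of their genes had a higher effect in BAT. Orm3 (chromosome 4, 63356069 to 63359506) had 13, 24.3 and 34.5 CPM in BAT CON and 48.6, 66.4 and 84.3 CPM in BAT MR. Liver had 1.11, 1.73 and 3.63 CPM in control and 0.105, 0.121 and 0.431 CPM in restricted libraries. The groups did not overlap in either tissue. It rose in BAT by 1.44 ± 0.23 (adjusted p = 0.000651) and fell in liver with an effect of -3.24 (SE 0.40, adjusted p = 4.09e-05), with a difference of 4.67 ± 0.46 (adjusted p = 4.8e-06). The restricted livers averaged 1.83 counts, so the liver fold is imprecise. Orm1 (chromosome 4, 63344556 to 63348163) had 13.4, 16.6 and 20 CPM in liver CON and 2.63, 5.83 and 8.11 CPM in liver MR, with a liver effect of -1.59 ± 0.28 (adjusted p = 0.00287). Its BAT effect was 0.52 ± 0.30 (adjusted p = 0.338) and the difference 2.11 ± 0.41 (adjusted p = 0.008). Orm1 and Orm3 are near-identical neighbours, so the split of tags between them is uncertain. Of 18 tested acute phase genes, the difference was called for these 2 and, in the other direction, for Lbp. In BAT 5 of the 18 fell and 1 rose. Without BAT CON3106, 2 fell and 2 rose, and the median BAT effect went from -1.73 to 0.

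Gyk and Elovl3 rose in BAT and were not called in liver. Gyk, glycerol kinase, named Gk in RefSeq (chromosome X, 85701937 to 85776819), had 91.4, 111 and 128 CPM in BAT CON and 252, 306 and 647 CPM in BAT MR. Its liver levels were 157, 190 and 204 CPM in control and 133, 185 and 224 CPM in restricted libraries. The BAT groups did not overlap and the liver groups did. The effect was 1.87 ± 0.21 in BAT (adjusted p = 1.69e-05) and -0.02 ± 0.20 in liver (adjusted p = 0.996), with a difference of 1.89 ± 0.29 (adjusted p = 0.00113). Elovl3, an elongase of very long fatty acids (chromosome 19, 46131897 to 46135694), had 147, 239 and 316 CPM in BAT CON and 385, 589 and 868 CPM in BAT MR, with no overlap. Liver had 199 to 624 CPM in control and 201 to 323 CPM in restricted libraries. Its effect was 1.41 ± 0.27 in BAT (adjusted p = 0.00456) and -0.44 ± 0.27 in liver, and the difference was 1.86 ± 0.38 (adjusted p = 0.0138).

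Gyk and Elovl3 were the 2 of 23 tested genes of the thermogenic program whose difference edgeR called, both higher, and DESeq2 and limma voom each called 3. Over all genes tested, edgeR called 0.568% of differences higher. Only 12 of the 23 were measured in both tissues, and the others carry little on the diet effect in liver. In BAT 5 of the 23 rose and 1 fell, against 1.85% and 2.7% of all genes tested. In liver edgeR and DESeq2 called 0, with 4 at an unadjusted p under 0.05. The other genes that rose in BAT were Dio2, the deiodinase that activates thyroid hormone (1.30 ± 0.24, adjusted p = 0.00479), Ppargc1a, a coactivator of mitochondrial genes (0.77 ± 0.15, adjusted p = 0.00477), and Bmp8b, a secreted factor of brown adipocytes (3.09 ± 0.39, adjusted p = 0.000149). The gene that fell was Ppara, a nuclear receptor of fatty acid oxidation (-0.77 ± 0.20, adjusted p = 0.0294). Dio2 and Bmp8b had at most 1 count in any liver library, so the fold in liver is not given and their difference between tissues carries no information. For Ppargc1a the difference of 0.66 ± 0.21 was not called (adjusted p = 0.127). Ucp1 had 1536, 2591 and 3145 CPM in BAT CON and 2996, 4249 and 5528 CPM in BAT MR, an effect of 0.85 ± 0.47 that was not called (adjusted p = 0.325). Its difference of 3.43 ± 1.07 was not called by edgeR (adjusted p = 0.112) and was called by DESeq2 (3.65, adjusted p = 0.0119), with a mean of 4.33 counts in liver CON and 0.667 in liver MR. Of 46 tested genes of the respiratory chain and ATP synthase, edgeR and DESeq2 called 0 in either tissue or for the difference, with 0 in BAT, 3 in liver and 4 for the difference at an unadjusted p under 0.05. Their median difference was 0.10, and 2018 of all 12321 differences had an unadjusted p under 0.05.

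Of 25 tested genes of lipogenesis and triglyceride synthesis, Gpam and Elovl5 had a called difference, both higher. Gpam, the first acyltransferase of glycerolipid synthesis (chromosome 19, 55067635 to 55127319), had 19.3, 23.8 and 33.4 CPM in BAT CON and 43.8, 57 and 98.2 CPM in BAT MR, with no overlap. In the livers it had 13.9, 21.6 and 28.2 CPM in control and 12.3, 15 and 19.7 CPM in restricted libraries. The effect was 1.28 ± 0.20 in BAT (adjusted p = 0.000632) and -0.43 ± 0.20 in liver (adjusted p = 0.544), and the difference was 1.71 ± 0.29 (adjusted p = 0.00214). Elovl5, an elongase of unsaturated fatty acids (chromosome 9, 77917365 to 77984519), had 516, 717 and 1210.0 CPM in liver CON and 224, 389 and 493 CPM in liver MR, with no overlap. It had 61.7, 73.5 and 102 CPM in BAT CON and 82, 108 and 181 CPM in BAT MR. The liver effect was -1.0 ± 0.22 (adjusted p = 0.0225) and the BAT effect 0.59 ± 0.22 (adjusted p = 0.118), with a difference of 1.59 ± 0.31 (adjusted p = 0.00982; 0.108 with the block). The liver call of Elovl5 was lost without liver CON3106, liver MR3102, liver MR3104 or liver MR3116 (adjusted p of 0.0561 to 0.0834).

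Over the 25 genes of this list, 19 differences were above 0, against 5775 of all 12321 genes tested. In liver 6 fell and 0 rose, against 0.487% and 0.357% of all genes tested. The median liver effect of the list was -0.59. The 6 were Acacb, Acss2, Elovl5, Insig2, Scd1 and Thrsp. In BAT 1 rose (Gpam) and 1 fell (Acss2), with a median of -0.03. Scd1, the desaturase of saturated fatty acids (chromosome 19, 44394450 to 44407709), had 3593, 6255 and 7635 CPM in liver CON and 398, 1427 and 2760 CPM in liver MR. In BAT it had 27965, 35006 and 48670 CPM in control and 15982, 20125 and 21073 CPM in restricted libraries. The groups did not overlap in either tissue. It fell in liver with an effect of -1.96 (SE 0.32, adjusted p = 0.0012), and its BAT effect of -0.97 ± 0.31 was not called in the shared fit (adjusted p = 0.0703) and was called when BAT was fitted alone (adjusted p = 0.0176). The difference for Scd1 was 0.98 ± 0.44 (adjusted p = 0.258). Thrsp, an activator of lipogenesis, fell in liver with an effect of -1.80 (SE 0.35, adjusted p = 0.0067), against 0.07 ± 0.34 in BAT, and its difference of 1.87 ± 0.48 just missed the threshold (adjusted p = 0.0581). Acacb, the acetyl-CoA carboxylase tied to control of fatty acid oxidation, fell in liver with an effect of -1.19 (SE 0.25, adjusted p = 0.0127), with a difference of 1.32 ± 0.34 (adjusted p = 0.0619). Both differences passed in DESeq2 (adjusted p = 0.00792 and 0.00986). Insig2, a brake on sterol-regulated synthesis, fell in liver with an effect of -1.04 (SE 0.23, adjusted p = 0.0259). Its call was lost without liver CON3106, liver CON3115, liver MR3102, liver MR3104, liver MR3109 or liver MR3116 (adjusted p of 0.0516 to 0.0797).

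Sc4mol, also named Msmo1, a sterol oxidase of cholesterol synthesis, rose in BAT by 0.80 ± 0.20 (adjusted p = 0.0266). Its call was lost without BAT MR3102 or BAT MR3116 (adjusted p of 0.0510 and 0.0694). For fatty acid oxidation and ketogenesis edgeR and DESeq2 called 0 of 29 differences and limma voom 1, with 7 at an unadjusted p under 0.05. Of the 29 differences, 24 lay below 0, with a median of -0.35. Of all 12321 genes tested, 6546 differences lay below 0 and 2018 had an unadjusted p under 0.05. In liver 2 rose, Cyp4a14, a fatty acid hydroxylase (2.87 ± 0.28, adjusted p = 1.3e-06), and Fgf21, which the list also holds. In BAT 2 fell, and without BAT CON3106 1 fell, Hadh, an enzyme of beta-oxidation. Hadh had -0.61 ± 0.16 in BAT (adjusted p = 0.0322), which was lost without BAT CON3107, BAT CON3114, BAT MR3101, BAT MR3102 or BAT MR3116 (adjusted p of 0.0502 to 0.0662). Its difference was -0.73 ± 0.23 (adjusted p = 0.111), and without BAT CON3106 it was -0.83 and called (adjusted p = 0.0463).

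Gmpr, an enzyme that converts GMP to IMP (chromosome 13, 45507428 to 45546386), had 40, 66 and 87 CPM in BAT CON and 253, 276 and 577 CPM in BAT MR. In liver it had 1.08, 1.45 and 3.51 CPM in control and 0.563, 1.01 and 2.32 CPM in restricted libraries. The effect was 2.32 ± 0.29 in BAT (adjusted p = 3.74e-05) and -0.55 ± 0.37 in liver (adjusted p = 0.777), and the difference was 2.86 ± 0.47 (adjusted p = 0.00184). Isyna1, which makes inositol phosphate from glucose 6-phosphate (chromosome 8, 70594481 to 70597290), had 5.31, 9.35 and 10.5 CPM in BAT CON and 26.7, 43.2 and 64.4 CPM in BAT MR, with no overlap. Liver had 3.6 to 7.54 CPM in control and 4.54 to 8.09 CPM in restricted libraries. Its difference was 1.96 ± 0.32 (adjusted p = 0.00185), from 2.31 ± 0.23 in BAT and 0.35 ± 0.23 in liver.

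Col27a1, a chain of a fibrillar collagen (chromosome 4, 63214009 to 63334991), had 17.4, 33.8 and 44.4 CPM in liver CON and 7.48, 9.49 and 15.8 CPM in liver MR, with no overlap. BAT had 13.2, 17 and 32 CPM in control and 30, 35.6 and 61.6 CPM in restricted libraries. The effects were 1.06 ± 0.25 in BAT (adjusted p = 0.0228) and -1.62 ± 0.26 in liver (adjusted p = 0.00113), with a difference of 2.68 ± 0.36 (adjusted p = 0.000371). In BAT the call was lost without BAT CON3106 and without BAT MR3116 (adjusted p of 0.0566 and 0.0562). Scara5, a receptor that takes up ferritin (chromosome 14, 65666403 to 65764826), fell in liver from 2.81, 6.32 and 15.7 CPM to 0.13, 0.33 and 2.11 CPM, with an effect of -3.37 (SE 0.51, adjusted p = 0.000558). Its BAT levels were 8.91, 11.5 and 21.8 CPM in control and 7.68, 8.64 and 12.7 CPM in restricted libraries. The difference was 2.83 ± 0.65 (adjusted p = 0.0294). It was lost with the block (adjusted p = 0.134) and without BAT CON3114, BAT MR3116, liver CON3107, liver CON3114, liver MR3102, liver MR3109, liver MR3113 or liver MR3116 (0.0518 to 0.0678).

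Tsc22d1, a leucine zipper protein of TGF-beta signalling (chromosome 14, 76414961 to 76507765), had 34.2, 74 and 98.5 CPM in BAT CON and 105, 172 and 214 CPM in BAT MR, with no overlap. Its difference was 1.84 ± 0.44 (adjusted p = 0.0368), from 1.19 ± 0.31 in BAT and -0.65 ± 0.31 in liver. The difference was lost without filter (adjusted p = 0.0517) and without BAT CON3103, BAT CON3112, BAT CON3114, BAT MR3101, BAT MR3102, BAT MR3104, BAT MR3116, liver CON3106, liver CON3112, liver CON3114, liver MR3101, liver MR3109 or liver MR3113 (0.0519 to 0.0825). The BAT call was lost without BAT MR3101, BAT MR3104 or BAT MR3116 (0.0528 to 0.0666). Mtss1, an actin scaffold of curved membranes (chromosome 15, 58941234 to 59083956), rose in BAT from 25.5, 32.8 and 39.5 CPM to 42, 47 and 76.3 CPM and fell in liver from 64.3, 108 and 166 CPM to 57.1, 64.8 and 74.3 CPM. The effects were 0.68 ± 0.19 (adjusted p = 0.0408) and -0.81 ± 0.19 (adjusted p = 0.0333), and the difference was 1.49 ± 0.27 (adjusted p = 0.00449). The difference held without any single library, while the BAT call was lost without 7 libraries (BAT CON3106, BAT CON3112, BAT CON3114, BAT MR3101, BAT MR3102, BAT MR3116 and liver MR3109, adjusted p of 0.05 to 0.110). The liver call was lost without 8 (liver CON3103, CON3107 and CON3114 and liver MR3102, MR3104, MR3109, MR3113 and MR3116, 0.0505 to 0.107).

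Orm3, Col27a1, Mtss1 and Epb4.1l1 were the 4 genes called in opposite directions in the 2 tissues (0.0325% of genes tested). Without BAT CON3106 or BAT MR3116, 2 genes were so called.

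Genes called lower in both tissues numbered 3 (0.0243%), namely Acss2, Smo and Sucnr1. Acss2, the enzyme that makes acetyl-CoA from acetate in cytosol and nucleus (chromosome 2, 155518043 to 155562743), had 617, 777 and 953 CPM in BAT CON and 286, 444 and 518 CPM in BAT MR. Its liver levels were 242, 315 and 357 CPM in control and 120, 156 and 218 CPM in restricted libraries. No restricted library of either tissue reached its control group. The effects were close in size, -0.90 ± 0.18 in BAT (adjusted p = 0.00523) and -0.94 ± 0.18 in liver (adjusted p = 0.00542), with a difference of 0.05 ± 0.25 (adjusted p = 0.954). Smo, the transducer of hedgehog signals (chromosome 6, 29735497 to 29761366), had 3.19, 5.18 and 6.42 CPM in BAT CON and 1.36, 2.43 and 3.32 CPM in BAT MR. In the livers it had 4.21, 6.09 and 6.79 CPM in control and 1.99, 2.61 and 3.37 CPM in restricted libraries, which did not overlap. The effects were -1.09 ± 0.21 (adjusted p = 0.00477) in BAT and -1.10 ± 0.21 in liver (adjusted p = 0.00599), and with BAT fitted alone Smo missed the threshold there (adjusted p = 0.0506).

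Sucnr1, a receptor for extracellular succinate (chromosome 3, 60081869 to 60087566), had 8.62, 12.6 and 23.2 CPM in BAT CON and 2.71, 3.47 and 7.54 CPM in BAT MR. In liver it had 145, 165 and 294 CPM in control and 72, 82.3 and 111 CPM in restricted libraries. The groups did not overlap in either tissue. The effects were -1.68 ± 0.26 in BAT (adjusted p = 0.000535) and -1.19 ± 0.24 in liver (adjusted p = 0.0103). The highest BAT value was that of BAT CON3106, and without it the BAT effect was -1.47 (adjusted p = 0.00118). The difference of -0.49 ± 0.35 was not called (adjusted p = 0.531). A difference that misses the threshold does not show equal effects. The count of 3 was 3 to 5 with any single library left out, 5 without BAT MR3113.

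**Figure D4:**
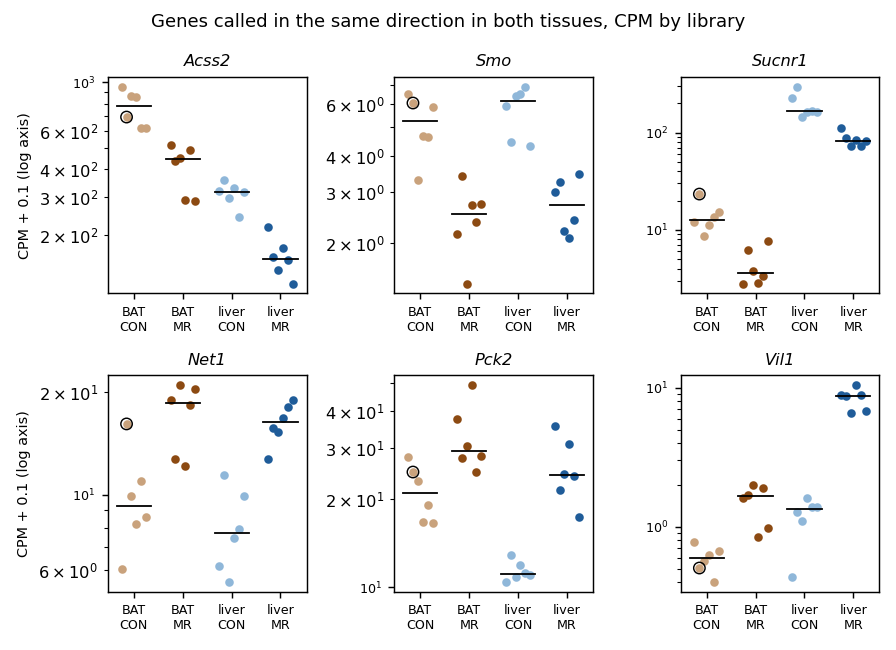
Level of the 6 genes called in the same direction in both tissues, as CPM plus 0.1 on log axes, in each BAT and liver library; bars are medians of 6 libraries and the circled point is BAT CON3106. Restricted libraries lie below the controls for Acss2 and Sucnr1 in both tissues and above them for Vil1, while the BAT groups of Smo, Net1 and Pck2 overlap.

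Genes called higher in both tissues also numbered 3 (0.0243%), namely Net1, Pck2 and Vil1. Vil1, which bundles actin in microvilli (chromosome 1, 74409384 to 74435560), had 0.337, 1.23 and 1.52 CPM in liver CON and 6.43, 8.64 and 10.3 CPM in liver MR. In BAT it had 0.302, 0.498 and 0.681 CPM in control and 0.743, 1.56 and 1.9 CPM in restricted libraries, with a mean of 5.17 counts per control library. The groups did not overlap in either tissue. The effects were 2.89 ± 0.26 in liver (adjusted p = 5e-07) and 1.49 ± 0.30 in BAT (adjusted p = 0.00573), and the difference of -1.40 ± 0.41 was not called (adjusted p = 0.095). In BAT the call was lost with limma voom and 1 variance weight per tissue (adjusted p = 0.113).

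Pck2, the mitochondrial form of phosphoenolpyruvate carboxykinase and a known ATF4 target (chromosome 14, 55540263 to 55550020), had 10.3, 11 and 12.8 CPM in liver CON and 17.4, 24.1 and 35.4 CPM in liver MR, with no overlap. BAT had 16.6, 21 and 27.7 CPM in control and 24.7, 29.1 and 48.9 CPM in restricted libraries. The effects were 1.17 ± 0.18 in liver (adjusted p = 0.000791) and 0.62 ± 0.18 in BAT (adjusted p = 0.0461). The BAT call was lost with limma voom (adjusted p = 0.059), without filter (0.0627) and with a stricter filter (0.0527). It was also lost without any single library other than BAT CON3103, BAT MR3102, BAT MR3113, liver CON3106, liver MR3101 and liver MR3116 (0.05 to 0.107). Net1, an exchange factor for the GTPase RhoA (chromosome 13, 3882018 to 3918220), had 5.93, 9.14 and 16 CPM in BAT CON and 12, 18.5 and 20.9 CPM in BAT MR. Liver had 5.44, 7.6 and 11.3 CPM in control and 12.6, 16.2 and 18.9 CPM in restricted libraries. The effects were 0.79 ± 0.21 in BAT (adjusted p = 0.0333) and 1.02 ± 0.21 in liver (adjusted p = 0.0135). In BAT the call was lost without BAT CON3103, BAT CON3112, BAT MR3101, BAT MR3104 or BAT MR3116 (adjusted p of 0.0558 to 0.0842) and the liver call without liver CON3103 (0.0520). Without BAT CON3112, BAT MR3101, BAT MR3104, BAT MR3116 or liver CON3103, 1 gene was called higher in both.

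Some called differences were of genes not measured in both tissues, where a level near 0 in 1 tissue carries little on its diet effect. Ttc25, a protein of cilia, had 8.46, 11.8 and 16.2 CPM in BAT CON and 29, 44 and 48.8 CPM in BAT MR, and rose by 1.72 ± 0.21 (adjusted p = 2.57e-05). Its liver levels were at most 0.817 CPM, and the difference was 2.55 ± 0.44 (adjusted p = 0.00283). Cend1 rose in BAT by 1.48 ± 0.28 (adjusted p = 0.00341), from 1.96, 3.16 and 4.26 CPM to 6.53, 8.98 and 12.1 CPM, and liver had at most 0.333 CPM. Its difference (adjusted p = 0.0456) was lost with the block (0.201), and without any single library other than BAT CON3112, BAT CON3115, BAT MR3102, BAT MR3113, liver CON3103, liver CON3112 and liver MR3102 (0.0532 to 0.150). Dnaic1, a dynein chain of cilia, rose in liver by 2.29 ± 0.40 (adjusted p = 0.00287), from 0.432, 1.38 and 1.87 CPM to 4.64, 5.37 and 8.22 CPM, and BAT had at most 0.603 CPM. Its difference was -4.62 ± 0.86 (adjusted p = 0.00586; 0.0619 with the block).

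Igfbp2, Rdh9 and Ttc36 also had a lower effect in BAT, and in each the BAT tags came largely from BAT CON3106. Igfbp2, which binds insulin-like growth factors, had 2.61 CPM in BAT CON3106 and at most 0.151 CPM in any other BAT library. Its difference was -5.03 ± 1.22 (adjusted p = 0.043) and -2.30 without BAT CON3106 (adjusted p = 0.352). Rdh9, a retinol dehydrogenase, and Ttc36 had differences of -3.68 ± 0.85 (adjusted p = 0.0308) and -3.97 ± 0.97 (adjusted p = 0.0443). Without BAT CON3106 these were -2.40 (adjusted p = 0.16) and -2.55 (adjusted p = 0.123). In liver, where all 3 had high levels, their effects were 0.73 ± 0.42, 0.43 ± 0.28 and 0.17 ± 0.34, none called. Igfbp2 was higher in every restricted liver than in every control liver, and passed when liver was fitted alone (adjusted p = 0.00548).

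Marker lists of other cell types moved with BAT CON3106. Of 20 hepatocyte markers, 10 fell in BAT with a median effect of -3.79. Without BAT CON3106, 0 fell and the median was 0.34. Of 8 tested lymphocyte markers, 7 fell in BAT, and 0 without that library. Of 16 tested macrophage markers, 3 fell in BAT and 2 without it, with a median of -0.93 and -0.54. Ccl6, a chemokine of macrophages, was the only marker of these lists with a called difference (-1.55 ± 0.38, adjusted p = 0.0451; 0.0799 without BAT CON3106 and 0.208 with the block). It was also lost without any single library other than BAT CON3103, BAT CON3114, BAT CON3115 and BAT MR3101 (0.0507 to 0.0880). Of 15 skeletal muscle markers, edgeR and DESeq2 called 0, with 0 at an unadjusted p under 0.05, and their median effects were -0.67 in BAT and 0.68 in liver. Of 13 endothelial markers edgeR called 0, with 2 in BAT and 2 differences at an unadjusted p under 0.05, and DESeq2 called 2 in BAT. Of 4 tested red blood cell markers edgeR and DESeq2 called 0, with 1 difference and 3 liver effects at an unadjusted p under 0.05. Over all genes tested, 2018 of 12321 differences had an unadjusted p under 0.05. Of 13 brown adipocyte markers, Elovl3 rose in BAT and had a called difference. The part of these markers in the gene results above was not tested beyond the values without BAT CON3106.

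**Figure D5:**
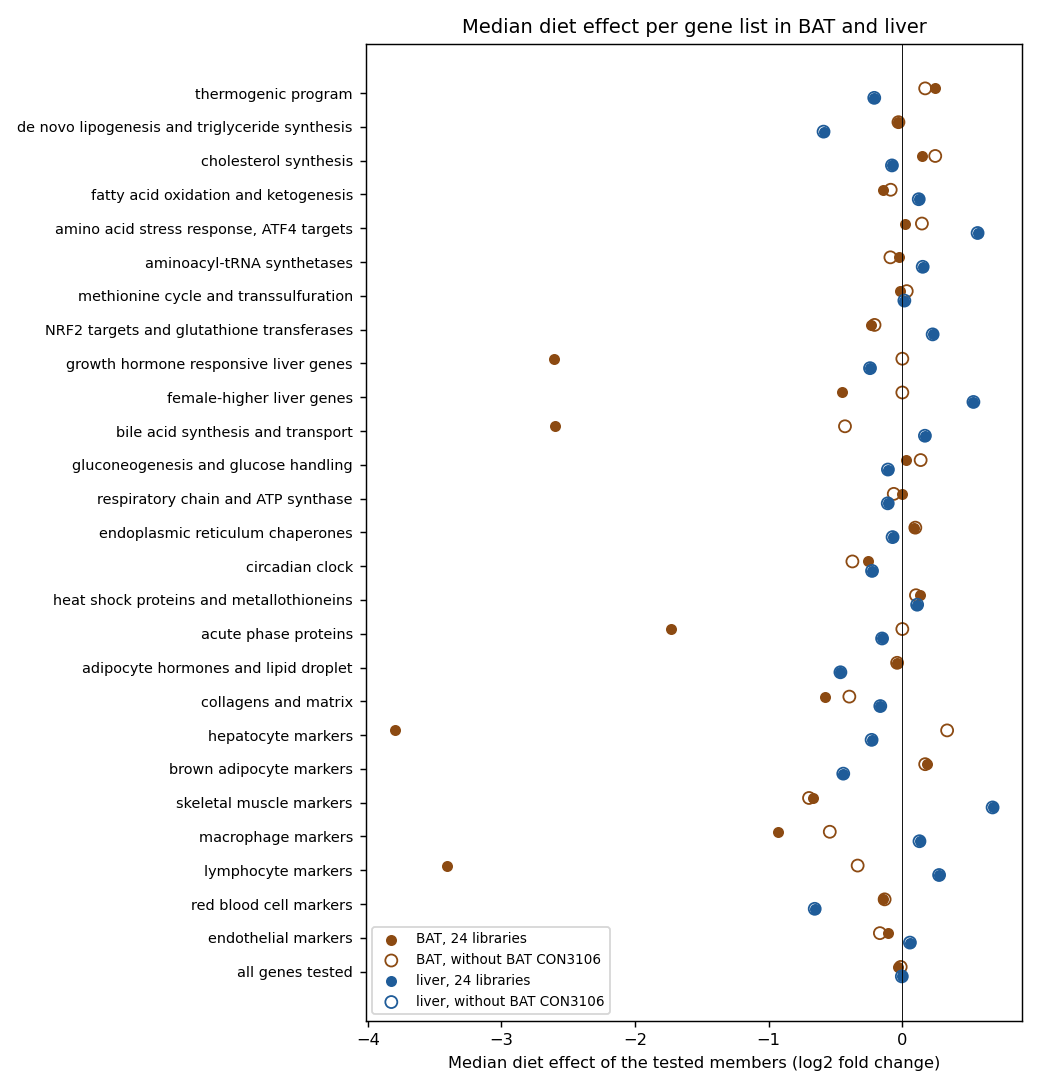
Median diet effect (log2 fold change) over the tested members of each gene list in BAT (brown) and liver (blue), with all 24 libraries (filled points) and without BAT CON3106 (open points). The amino acid stress list lies at 0.02 in BAT and 0.56 in liver, the lipogenesis list at -0.03 and -0.59, and the hepatocyte list moves from -3.79 to 0.34 in BAT when BAT CON3106 is left out.

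Of the hormones, Lep, the gene of leptin, fell in BAT from 9.94, 16.2 and 50.7 CPM to 2.04, 3.62 and 9.63 CPM, with an effect of -2.46 (SE 0.48, adjusted p = 0.00486), and had at most 0.702 CPM in liver. Igf1 had 757, 1145 and 1542 CPM in liver CON and 655, 734 and 842 CPM in liver MR. Its effects were -0.61 ± 0.36 in liver (adjusted p = 0.692) and -0.37 ± 0.37 in BAT (adjusted p = 0.635), and neither these nor their difference of 0.24 ± 0.51 were called. The 30 growth hormone responsive liver genes had 24 tested members. The difference was called higher for Elovl3 and lower for Igfbp2, the second of which was lost without BAT CON3106. Hspb1, a small heat shock protein, rose in liver by 1.10 ± 0.17 (adjusted p = 0.000723), from 12.1, 12.9 and 19.2 CPM to 18.2, 32.5 and 35.2 CPM, and had an effect of 0.30 ± 0.16 in BAT (adjusted p = 0.312). Its difference of -0.80 ± 0.23 was not called (adjusted p = 0.0957). It was the only one of 15 tested heat shock and metallothionein genes called in either tissue by edgeR.

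Several lists held 0 genes with a called difference in edgeR. For 17 genes of the circadian clock, 2 differences had an unadjusted p under 0.05 and DESeq2 called 0. For 20 adipocyte hormone and lipid droplet genes these numbers were 4 and 0. For 23 chaperones of the endoplasmic reticulum they were 3 and 1, and for 23 collagen and matrix genes 5 and 1. For 23 genes of gluconeogenesis and glucose handling they were 8 and 3. Over all 12321 genes tested they were 2018 and 329. Without BAT CON3106 edgeR called 1 of the glucose genes, Fbp1, a phosphatase of gluconeogenesis, as higher in BAT. In BAT alone, 3 collagen and matrix genes fell and 1 rose, and 1 fell and 1 rose without BAT CON3106. Dio2, Bmp8b, Ppara, Slc3a2, Insig2, Ephx1, Sc4mol, Tst and Fbp1 were named after their values were seen.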

How the data were processed

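Total RNA from BAT and liver was made into tag libraries with the SOLiD SAGE kit, and tags that mapped uniquely to RefSeq genes of the mouse were used, per the labels' protocols. The deposited values are raw tag counts per gene symbol, with no normalization. The submitters' processing notes name mm10, GRCm38.p1 and DESeq. Aligner and counter names were not given in the sources used here. Both tables were joined by symbol (26608 symbols).

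Genes were filtered with filterByExpr of edgeR 4.0.16 (R 4.3.3; minimum count 10), which left 12321, scaled with TMM factors, and fitted with edgeR's quasi-likelihood test on the 4 groups of 24 libraries. Calls used a Benjamini-Hochberg adjusted p under 0.05. Replicates were separate animals, and no pair of libraries agreed within sampling noise (chi-square per degree of freedom of 18.4 or more). Depth per library is given above, and the limit of a count of 0 was set at 3 counts.

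The same animals gave both tissues, so the animal number pairs the libraries. The deviations of the BAT and liver libraries of 1 animal from their group means had correlations from -0.401 to 0.316, with a mean of -0.025. The main fit had no block, and a fit with the animal as a block was an alternative. Other alternatives were DESeq2 1.42.0, DESeq2 or upper-quartile factors, other filters, limma 3.58.1 voom, separate fits by tissue, all 47 libraries in 1 fit and each library left out. A block fit without the animal of BAT CON3106 and voom with 1 variance weight per tissue were added after seeing the data. On simulated counts for 12321 genes with 200 changed, the edgeR fit of the tissue difference recovered 26% of the genes changed by 1 and 85% of those changed by 2 on the log2 scale, with 7 false calls. The simulation gave each gene the same spread in both tissues and had no animal effect and no outlying library. Its changed genes had enough counts in both tissues. The real libraries differ in these respects, so the simulated rates need not hold for them.

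The comparison, gene lists and naming rule were chosen with earlier results of these data known. Genes were named if they had proper symbols and were among the 10 largest or 10 smallest called differences measured in both tissues with a mean of at least 20 counts in a group. The same held for the 5 largest and 5 smallest not so measured, for genes called in both tissues and for up to 4 members of each list with the smallest p. Fgf21, Scd1, Ucp1, Asns, Phgdh, Psat1, Lep, Igf1, Gyk and Elovl3 were named in any case, and not all list members were described. An item withheld for evaluation is not reported here. Gene positions and windows came from RefSeq on GRCm38.p6, matched by symbol or synonym.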

Additional observations from a re-analysis of the deposited data

Results flagged for a closer look

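In 268 groups of 6 libraries, Dixon's ratio was taken on the log2 scale, for genes as log2 CPM with a prior count of 2. It is the gap of the highest or lowest library to its nearest neighbour, over the range of the group. The ratio was compared with Dixon's critical value of 0.625. It was larger in 28, where chance gives about 13.4 (1 in 20), and 8 of the 28 were values of BAT CON3106.

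BAT CON3106 had summed levels of 4261 CPM (of library totals) for hepatocyte markers (46.1 to 129.6 in the other BAT controls), 764 for lymphocyte markers (12.2 to 22.2) and 544 for macrophage markers (95.4 to 164). It also had 8.63 CPM of Pcbd1 (0.897 to 1.81 in the others), 2.61 CPM of Igfbp2 (at most 0.151), 58.2 CPM of Igf1 (13 to 21.2), 81.3 CPM of Gsta4 (111 to 128) and 80.1 CPM of Vldlr (118 to 144).

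Other libraries with a summed marker level far from their group were BAT MR3104 with 783 CPM of skeletal muscle markers, liver CON3114 with 1220.0 of the same, BAT MR3109 with 53.8 of macrophage markers and liver MR3102 with 96.6 of lymphocyte markers. Among genes, BAT MR3116 had high levels of Gmpr (577 CPM) and Dio2 (50.9 CPM), BAT MR3101 of Ccl6 (2.71 CPM) and BAT CON3107 of Orm1 (6.26 CPM). BAT MR3109 had low levels of Gstm1 (56.5 CPM) and Ppara (96.8 CPM). In liver, Pcbd1 was low in MR3104 (191 CPM), Hspb1 in MR3102 (18.2 CPM), Sc4mol in CON3106 (90.9 CPM) and Vil1 in CON3103 (0.337 CPM). The remaining values stood against 0 counts in the other 5 libraries of their group, and were Bmp8b in liver MR3109 (0.0947 CPM), Cend1 in liver MR3102 (0.113 CPM), Cyp4a14 in BAT MR3102 (0.428 CPM), Dio2 in liver CON3114 (0.117 CPM), Igfbp2 in BAT MR3116 (0.126 CPM) and Lep in liver MR3101 (0.324 CPM).

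The diet effect differed between BAT and liver by edgeR's test of the difference for 35 genes described above. The difference (log2, BAT minus liver) was positive for Mfsd2a (5.62), Orm3 (4.67), Cend1 (3.69), Gmpr (2.86), Scara5 (2.83), Col27a1 (2.68), Ttc25 (2.55), Orm1 (2.11), Isyna1 (1.96), Gyk (1.89), Elovl3 (1.86), Tsc22d1 (1.84), Gpam (1.71), Elovl5 (1.59) and Mtss1 (1.49). It was negative for Igfbp2 (-5.03), Dnaic1 (-4.62), Ttc36 (-3.97), Aldh1l2 (-3.71), Rdh9 (-3.68), Psat1 (-3.49), Gadd45b (-3.23), Asns (-3.12), Pcbd1 (-3.12), Ptgds (-3.05), Epb4.1l1 (-2.89), Snhg11 (-2.83), Csad (-2.75), Cyp39a1 (-2.60), Lbp (-2.45), Abcd2 (-2.04), Ccl6 (-1.55), Vldlr (-1.52), Gsta4 (-1.36) and Gstm1 (-1.13).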

How the results depend on the processing

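No called gene effect described above changed sign under an alternative. Without BAT CON3106 the uncalled BAT effect of Psat1 went from -0.52 to 0.39, the median BAT effect of the hepatocyte markers from -3.79 to 0.34, and the median difference of the growth hormone list from -1.20 to 0.42. Of 299 counts under an alternative, 240 stayed within 1.5 times. With the animal as a replicate block, 21 genes had a higher and 15 a lower effect in BAT, and 27 and 17 with the animal of BAT CON3106 left out of both tissues. The block kept 20 of the 35 called differences described above. DESeq2 called 161 and 168 differences, 77 genes higher and 107 lower in liver, 7 lower in both and 7 in opposite directions. With no filter there were 45 higher differences and 1 gene higher in both. The stricter filter gave 169 genes lower in BAT, 29 higher and 39 lower in liver, and 1 higher in both. Limma voom gave 177 genes lower in BAT and 6 lower in both. With 1 variance weight per tissue, voom gave 78 higher and 81 lower in BAT, 149 and 178 in liver, and 0 higher in both. Separate fits gave 62 and 58 in BAT, 115 and 133 in liver, and 0 higher in both. The fit of 47 libraries gave 3 and 11 differences, 22 and 19 in BAT, 14 and 15 in liver, 0 lower in both, 0 higher in both and 0 in opposite directions, with 889 differences at an unadjusted p under 0.05. The cause of these shifts was not tested. Of calls in BAT, 50% were of genes that rose under voom, against 40.6% in the main fit.

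With each library left out in turn, higher differences ranged from 44 (without BAT CON3114) to 88 and lower ones from 43 to 75. BAT counts ranged from 121 to 279 higher and from 109 to 453 lower, both lowest without BAT CON3106. Liver counts ranged from 33 to 53 higher and from 39 to 81 lower, the latter lowest without liver MR3102 or MR3109. Genes lower in both ranged from 3 to 5, higher in both from 1 to 3, and opposite from 2 to 6. Genes at or under 3 counts in 1 tissue bear no fold there.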
